A study of Mus musculus with 2 samples.

Results

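The regions described here are the 243 regions of chromosome 7 that start below 25 Mb in the mm9 build, out of 1576 listed on chromosome 7 and 23946 in the whole table. The rule that picked them uses position alone and no measured value, but it was set with earlier results of these data known. The stretch was chosen because it carries the Zscan4 gene cluster, which the selection rule places at about 10.5 to 11.6 Mb, and the imprinted gene Peg3, placed at about 6.7 Mb. These positions are approximate and were not read from an mm9 annotation. The last region inside the limit, R19170, starts at 24992472 and held 2 induced counts and 1 repressed count, as did R19171 just outside it, which starts at 25038837.

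DNA methylation was measured by methylated DNA immunoprecipitation with sequencing (MeDIP-seq), in which sheared, denatured DNA is precipitated with an antibody to 5-methylcytosine (5mC). The cells were mouse embryonic stem (ES) cells of the tet-Zscan4c line, derived from MC1 (129S6/SvEvTac) and grown without feeders with leukemia inhibitory factor. Both libraries come from this same line, which carries a Zscan4-Flag transgene under doxycycline control. The repressed library was made with 1.5 µg/ml doxycycline, which keeps the transgene silent, and the induced library without the drug. Each condition has 1 library, so the values compare those libraries, have no replicate check, and cannot tell the drug from the transgene. Over all listed regions the induced library holds 51169 and the repressed library 70219 counts.

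Zscan4 genes encode proteins with a SCAN domain and zinc fingers that are switched on at the 2-cell stage of the embryo and, in bursts, in a few ES cells at a time. In mouse they form a cluster of near-identical copies and pseudogenes on proximal chromosome 7. Peg3 encodes a large zinc-finger protein and is expressed from the paternal allele, and the control region at its promoter carries methylation on the maternal allele. The same arm holds clusters of zinc-finger genes, of vomeronasal receptors (Vmn1r and Vmn2r, the pheromone receptor genes) and of Obox homeobox genes. In vertebrates 5mC lies mostly at CpG sites, so a MeDIP count depends on how many CpGs a fragment holds as well as on how many of them are methylated.

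No mm9 sequence of the listed regions was used here. The promoters of the genes for which the stretch was chosen are shown instead, from RefSeq in the GRCm38.p6 build, to show how many sites for methylation they offer. Each is 300 bases long, from 250 before to 50 after the start of the gene, 5′ to 3′ on the strand of the gene, with every CpG in capitals. Positions in this build do not correspond to the mm9 positions used elsewhere. Zscan4c is the gene from which the transgene takes its name (chr7:11005495-11005794, + strand), Zscan4f is another copy of the cluster (chr7:11397665-11397964, + strand), and the Peg3 promoter lies at chr7:6730370-6730669 on the - strand.
Zscan4c: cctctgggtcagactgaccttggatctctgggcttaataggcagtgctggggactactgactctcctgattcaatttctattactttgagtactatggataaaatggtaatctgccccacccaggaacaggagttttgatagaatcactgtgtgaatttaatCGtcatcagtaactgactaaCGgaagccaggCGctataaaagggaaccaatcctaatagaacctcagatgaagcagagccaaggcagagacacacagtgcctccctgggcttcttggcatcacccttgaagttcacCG
Zscan4f: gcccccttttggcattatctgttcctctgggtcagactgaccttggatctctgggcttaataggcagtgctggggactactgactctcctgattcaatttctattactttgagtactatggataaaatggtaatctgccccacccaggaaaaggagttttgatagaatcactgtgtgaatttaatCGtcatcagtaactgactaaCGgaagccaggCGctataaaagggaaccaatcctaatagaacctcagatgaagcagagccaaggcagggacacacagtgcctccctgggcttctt
Peg3: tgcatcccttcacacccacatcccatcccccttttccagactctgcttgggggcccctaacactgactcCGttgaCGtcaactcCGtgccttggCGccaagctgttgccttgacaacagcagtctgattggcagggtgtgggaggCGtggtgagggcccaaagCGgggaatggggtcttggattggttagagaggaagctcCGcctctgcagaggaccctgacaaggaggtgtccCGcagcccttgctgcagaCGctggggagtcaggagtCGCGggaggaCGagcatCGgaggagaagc

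The Zscan4c promoter holds 4 CpGs and that of Zscan4f 3, against 13 in the Peg3 promoter. Over 32851 mouse promoters of this length the median was 7 CpGs, and 38.0% had 4 or fewer. The 4 Zscan4 genes with a promoter in the table ranged from 1 to 4 CpGs. Among the gene families of chromosome 7, the 115 Vmn1r promoters had a median of 2, the 49 Vmn2r promoters 1 and the 5 Obox promoters 1, whereas the 109 zinc-finger gene promoters had 14. No listed region could be placed on any of these promoters, because the builds differ.

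The Zscan4 interval was almost empty of listed regions. A single region, R19018 (chr7:11590025-11591025), starts inside it, near its far end. It held 2 induced and 3 repressed counts, for a scaled induced-to-repressed ratio of 0.915 with a 95% exact binomial interval from 0.0764 to 7.99. Ratios are scaled throughout so that both libraries have the same total over all listed regions, and intervals cover counting error only. Such an interval allows a large difference in either direction. Whether this region covers a Zscan4 gene was not determined, so 5mC at the Zscan4 genes themselves was not measured here. Against the 1333 regions of the rest of chromosome 7 the ratio was 0.899 times as large (0.0751 to 7.85, two-sided Fisher exact p = 1), and against the other 242 regions of the proximal stretch 0.839 times (0.0699 to 7.34, Fisher exact p = 1). Reads from the Zscan4c transgene and from the genomic copies would share sequence, and how they were placed is not given in the sources used here.

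That region marks the far edge of a stretch with no listed region. Between R19017, which ends at 7253370, and R19018 lay 4.34 Mb, the 5th largest of 23320 distances between neighbouring listed regions on the autosomes. A second such stretch of 3.74 Mb, the 7th largest, separated R19165, which ends at 20514912, from R19166, which starts at 24254250. With those of 1.43 Mb (from 14985956) and 1.07 Mb (from 5033125), distances of 1 Mb or more took up 10.6 Mb of the arm. In number they were near the share elsewhere, at 4 of 242 distances (1.65%). The rest of chromosome 7 had 17 of 1332 (1.28%) and the other 18 autosomes 341 of 21745 (1.57%). Of the 22 steps of 1 Mb from 3 to 25 Mb, 7 were empty (31.8%), namely those beginning at 8, 9, 10, 15, 21, 22 and 23 Mb. The rest of chromosome 7 had 14 empty steps of 128 (10.9%) and the other 18 autosomes 210 of 2271 (9.25%). Empty stretches were not particular to this arm: the largest autosomal one, of 7.70 Mb, began at 39057084 on the same chromosome.

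In GRCm38, used here for the order of genes only, 42 Vmn2r and 12 Vmn1r genes stand among the 124 genes between Usp29, the neighbour of Peg3, and the first Zscan4 gene. The 9 Zscan4 genes and pseudogenes follow, and 35 Vmn1r genes stand among the 122 genes between the last of them and the first Obox gene. A region missing from the table says nothing of its methylation, since the way regions were chosen is not given in the sources used here.

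**Figure D1:**
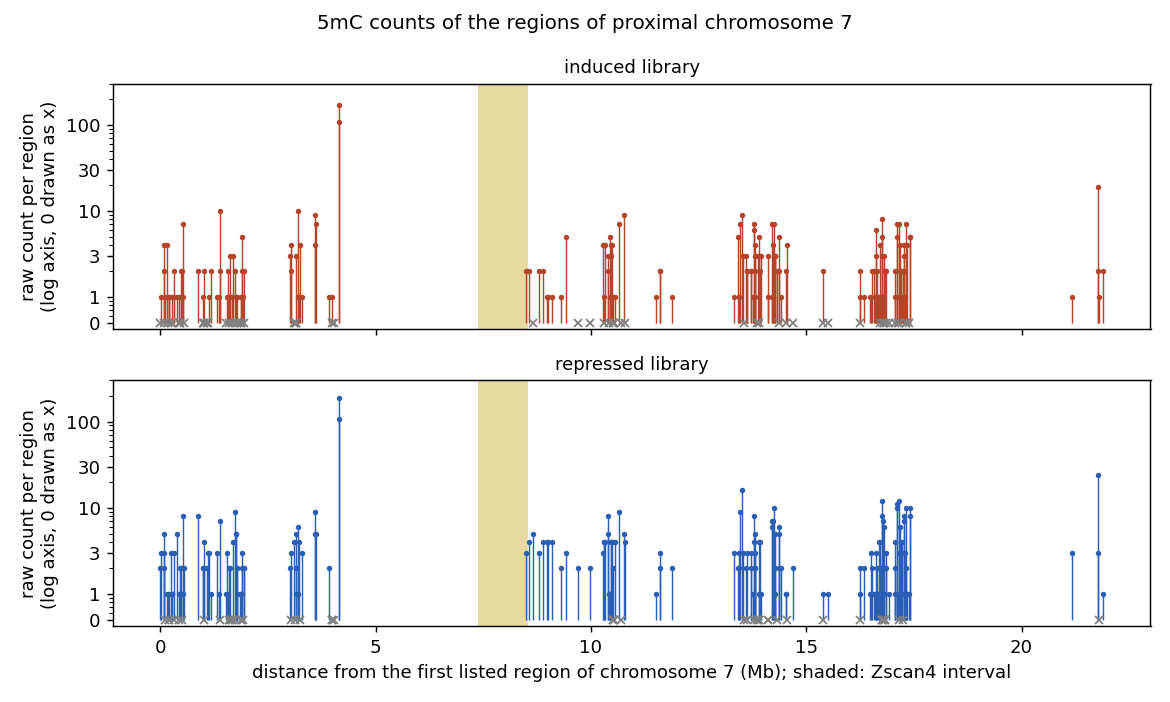
Raw 5mC count of each of the 243 regions (log axis, a count of 0 drawn as a grey cross) in the induced and the repressed library, against the distance from the first listed region of chromosome 7 in Mb, with the Zscan4 interval shaded. The shaded interval holds 1 region at its right edge, and the pair of regions at about 4 Mb from the start exceeds 100 counts in both libraries.

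Where the arm was covered, its regions were about as well sampled as elsewhere. The 243 regions held 768 induced and 967 repressed counts over 320 kb of covered sequence. Their median summed count was 4, against 3 in the rest of chromosome 7 and in the whole table. No count was seen in 61 of them in the induced library (25.1%) and in 47 in the repressed library (19.3%), against 26.3% and 18.1% in the rest of the chromosome. In 16 of the 243 both libraries were at 0. Their median length was 1066 bp, with a range from 1000 to 3513 bp, and 113 (46.5%) measured exactly 1000 bp, against a median of 1177 bp and 41.4% in the rest of chromosome 7. Only 4 regions had 20 or more counts (1.65%, against 2.63% in the rest), and 8 overlapped the region before, so reads there may be counted in both.

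The listed regions lay in blocks. When regions less than 100 kb apart are joined, the 243 form 30 blocks, and 10 blocks of 5 or more regions contain 198 of them. Over all steps of the arm, empty ones included, there were 11.05 regions per 1 Mb step, against 10.4 in the rest of chromosome 7 and 9.58 on the other autosomes. Over occupied steps alone there were 16.2, against 11.7 and 10.6. The blocks were not counted elsewhere.

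Taken as a whole, the proximal stretch held slightly more signal in the induced library than the rest of chromosome 7, but by no more than counting error. Its scaled ratio was 1.09 (0.990 to 1.20), and that of the rest 1.02 (0.970 to 1.07) from 2931 induced and 3953 repressed counts. The former was 1.07 times the latter (0.962 to 1.19, two-sided Fisher exact p = 0.212, Benjamini-Hochberg adjusted p = 0.636 over the 3 comparisons made of the stretch and the Zscan4 interval). The excess lay in 2 regions. Without the regions that have no adjusted value, the stretch held 491 and 672 counts, for a ratio of 1.00 (0.891 to 1.13), which is 0.985 times the value in the rest (0.867 to 1.12, Fisher exact p = 0.823). Among regions with fewer than 20 counts the ratio was 1.01 in the stretch (0.890 to 1.14) and 0.998 in the rest (0.948 to 1.05). Among regions with 20 or more counts it was 1.25 (1.07 to 1.46) in the 4 of the stretch, which include those 2. In the 35 such regions of the rest it was 1.14 (1.00 to 1.29), so a ratio above 1 at high counts was not particular to the stretch. These ratios of ratios do not depend on the scaling, whereas the value of 1.09 was 1.04 under TMM scaling, 0.908 under the median of ratios and 0.794 without scaling.

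The 2 regions that carried the excess are neighbours on the near edge of the empty stretch. R19016 (chr7:7230473-7231477) held 107 counts in each library, a scaled ratio of 1.37 (1.04 to 1.81). R19017 (chr7:7251419-7253370) held 170 induced and 188 repressed counts, for a ratio of 1.24 (1.00 to 1.54). Together they held 572 of the 1735 counts of the stretch, 36.1% of its induced and 30.5% of its repressed counts. They ranked 14th and 5th of all 23946 regions by summed count, and they are 2 of the 14 regions for which the authors' adjusted value is blank. The other 4 regions of the same 1 Mb step held 2 counts in each library in all. The nearest of them ends at 7125335, and no region is listed between it and R19016. How far the high counts extend was therefore not determined.

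Their summed ratio was 1.29 (1.09 to 1.52). The other 12 regions with a blank adjusted value, on other chromosomes, held 2179 and 2842 counts, a ratio of 1.05 (0.995 to 1.11), and the remaining 241 regions of the stretch had 1.00 (0.891 to 1.13). These values were set side by side after being seen and are given without a test. In the exact binomial test of each region both had an unadjusted p under 0.05 (0.0222 for R19016 and 0.0421 for R19017), and both had an adjusted p = 1 over the 21323 regions with a count. Their ratios were 1.00 and 0.904 without scaling.

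**Figure D2:**
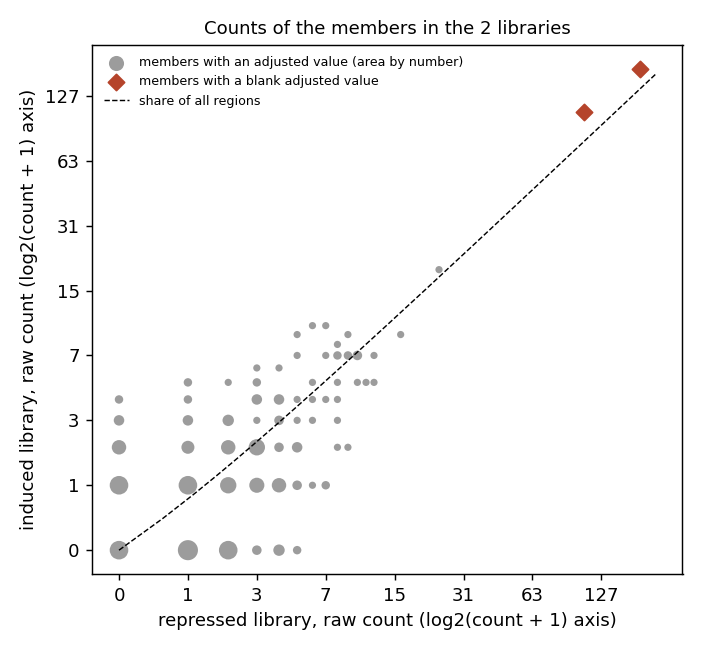
Raw counts of the 243 regions in the repressed (horizontal) and induced (vertical) library on log2(count + 1) axes, with the area of a point growing with the number of regions at that pair of counts. The dashed line is the share of all listed regions, and the diamonds are R19016 (107 and 107 counts) and R19017 (188 repressed and 170 induced), both slightly above it.

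The signal was then followed along the arm in steps of 1 Mb, of which 15 held regions and 12 at least 20 counts. No step passed an exact two-sided binomial test against the induced share of all regions (42.2%), adjusted over the 1320 such steps of the genome, where 0 (0.0%) passed. At an unadjusted p under 0.05 there was 1 of the 12, against 94 of the 1320 (7.12%) in the genome. That step, from 7 to 8 Mb, holds the 2 high regions, with 279 induced and 297 repressed counts and a ratio of 1.29 (1.09 to 1.52, exact binomial p = 0.00237, adjusted p = 0.348). Without these it held 2 and 2 counts. The test compares the reads of 2 libraries, not the conditions.

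The steps nearest the centromere had ratios below 1. The step from 3 to 4 Mb held 36 induced and 57 repressed counts in 28 regions, a ratio of 0.867 (0.555 to 1.34). The next, from 4 to 5 Mb, held 46 and 75 in 37 regions, a ratio of 0.842 (0.570 to 1.23). Both intervals include 1, and of their 65 regions 28 had more and 33 had less scaled signal after induction. Summed, the 65 regions had a ratio of 0.852 (0.639 to 1.13). Under the median of ratios, which lowers every ratio, they had 0.710 (0.532 to 0.942). The step from 5 to 6 Mb had 3 regions with 3 and 4 counts.

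The step of Peg3, from 6 to 7 Mb, had the highest ratio of the 12, with 49 induced and 50 repressed counts in 16 regions, a ratio of 1.34 (0.888 to 2.04, exact binomial p = 0.154, adjusted p = 0.884). Of its regions 10 were higher, 5 lower and 1 had no count. The direction hung on the scaling: the ratio was 1.12 under the median of ratios and 0.980 without scaling. The 3 regions nearest to 6.7 Mb span 33.0 kb. R19009 (chr7:6680344-6681344) held 9 counts in each library and a scaled ratio of 1.37 (0.483 to 3.90). R19010 (chr7:6681496-6682496), 152 bp further on, held 4 induced and 5 repressed counts, and R19011 (chr7:6712355-6713355) held 7 and 5. All 3 had counts in both libraries, and together they gave 20 and 19 counts, a ratio of 1.44 (0.732 to 2.86), so that no difference was detectable at this depth. Which of them, if any, covers the control region of Peg3 was not determined, and the counts do not separate the maternal from the paternal allele.

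Beyond the Zscan4 interval, the next regions mostly held fewer counts in the induced library. The step from 11 to 12 Mb, which contains R19018, held 8 induced and 19 repressed counts in 5 regions, with a ratio of 0.578 (0.219 to 1.38; exact binomial test, adjusted p = 0.934). The step from 12 to 13 Mb held 9 and 19 counts in 6 regions, for a ratio of 0.650 (0.259 to 1.51). These were the lowest ratios of the 12 steps with 20 or more counts.

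Of the 11 regions between 11 and 13 Mb, all with counts, 10 were lower in the induced library. Over all regions 10947 were lower (45.7%), 10376 were higher and 2623 had no count. In the rest of chromosome 7, 639 were lower (47.9%), 577 were higher and 117 had no count. Both shares include the regions with no count, which cannot be lower. The alternative scalings lower every ratio, so none of them could reduce the count of 10. In order, R19018 and R19021 held 2 induced and 3 repressed counts, R19019 and R19022 held 2 and 4, and R19023, R19024 and R19025 held 1 and 4. R19020 had 0 and 5 counts, R19026 1 and 2, and R19028 0 and 2. R19027 (chr7:12500978-12502017) was the exception, with 5 induced and 3 repressed counts. No region held more than 8 counts, and the 11 together held 17 and 38, a ratio of 0.614 (0.325 to 1.11). Under the median of ratios they had 0.511 (0.271 to 0.928), and all 243 regions of the stretch had 0.908 (0.825 to 0.999). With the limits of the Zscan4 interval widened to 9 and 13 Mb, these 11 regions are taken in. Their ratio was 0.603 times that of the rest of chromosome 7 (0.319 to 1.10, Fisher exact p = 0.0997). It was 0.553 times that of the other 232 regions of the stretch (0.291 to 1.01, Fisher exact p = 0.0527). Those 232 include the high regions R19016 and R19017 and had a ratio of 1.11 (1.01 to 1.22). The comparison was not made without R19016 and R19017. Limits of 10 and 12 Mb gave 0.568 times the rest of chromosome 7 (0.215 to 1.36, Fisher exact p = 0.241). Against the other regions of the stretch they gave 0.525 times (0.198 to 1.27, Fisher exact p = 0.171). None of these comparisons passed 0.05.

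**Figure D3:**
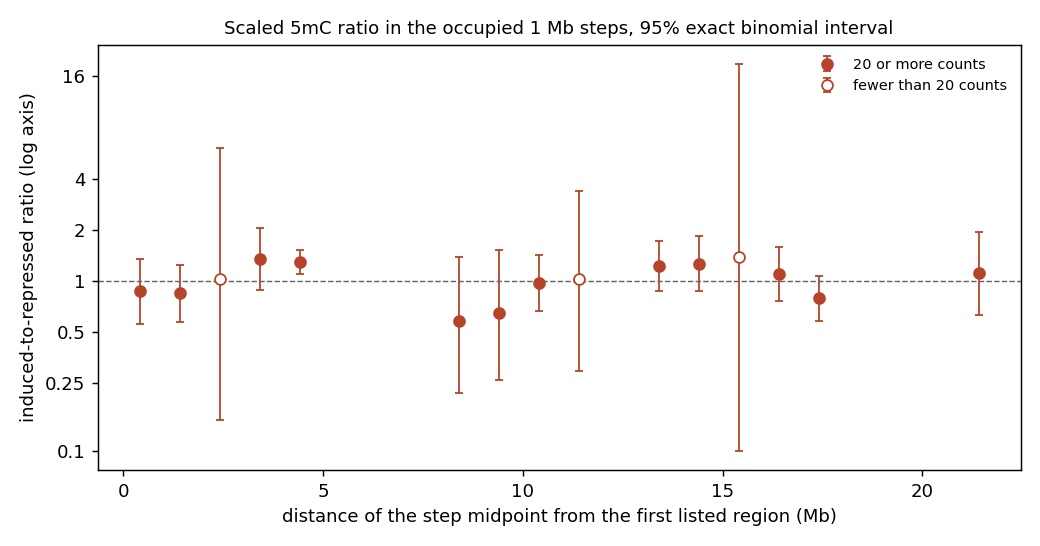
Scaled induced-to-repressed ratio (log axis) of each occupied 1 Mb step with its 95% exact binomial interval, against the distance of the step's midpoint from the first listed region of chromosome 7 in Mb; open circles are steps with fewer than 20 counts. Ratios run from 0.578 (11 to 12 Mb) to 1.34 (6 to 7 Mb) among the filled circles, and 11 of those 12 intervals include 1, the exception being the step with the 2 high regions.

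Of the steps with 20 or more counts, those beginning at 13 and 19 Mb lay closest to the share of all regions. The step from 13 to 14 Mb held 49 induced and 69 repressed counts in 22 regions, a ratio of 0.975 (0.662 to 1.43). The steps beginning at 14 and 18 Mb held 14 and 4 counts in all, too few for a comparison. From 16 to 17 Mb there were 69 and 77 counts in 25 regions, a ratio of 1.23 (0.876 to 1.72), and from 17 to 18 Mb 58 and 63 in 21 regions, a ratio of 1.26 (0.869 to 1.83). Both lay above 1 with the scaling by totals, but summed they gave 1.04 under the median of ratios and 0.907 without scaling. The step from 19 to 20 Mb held 57 and 71 counts in 31 regions, a ratio of 1.10 (0.764 to 1.58).

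The step from 20 to 21 Mb was the best covered after that of the 2 high regions, with 72 induced and 125 repressed counts in 31 regions and a ratio of 0.790 (0.583 to 1.06, exact binomial p = 0.113, adjusted p = 0.852). All but 1 of its regions form the largest block of the arm, 30 regions within 367 kb (chr7:20147622-20514912) that end at the empty stretch of 3.74 Mb. Of these 22 had a lower and 8 a higher scaled count after induction, and all had counts. The shares lower were 45.7% of all regions and 47.9% of the rest of chromosome 7. These shares include 2623 and 117 regions with no count, which cannot be lower. Among regions with a count, 10947 were lower and 10376 higher in the whole table, and 639 and 577 in the rest of chromosome 7. The block held 72 and 124 counts, a ratio of 0.797 (0.588 to 1.07), against 1.13 (1.02 to 1.25) in the other 213 regions, which include the 2 high ones, and 1.02 in the rest of chromosome 7. Whether its interval included 1 hung on the scaling. Under the median of ratios the block had 0.664 (0.489 to 0.894), and all 243 regions of the stretch had 0.908 (0.825 to 0.999). The block was singled out after its values were seen and is given without a test.

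The block consisted of many small differences. Its best covered region, R19143 (chr7:20239749-20240749), held 7 induced and 12 repressed counts, R19140 and R19161 held 7 and 10 each, R19141 5 and 11, and R19165 5 and 10. R19157 (chr7:20367231-20368231) held 1 and 7 counts, and R19162 (chr7:20432358-20433358) went the other way with 4 and 1. No region of the block exceeded 19 counts.

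After the empty stretch, 5 regions lie between 24 and 25 Mb, with 25 induced and 31 repressed counts and a ratio of 1.11 (0.626 to 1.94). Most of these belong to R19167 (chr7:24866671-24868250), which held 19 and 24 counts, for a ratio of 1.09 (0.563 to 2.07). The other 4 held between 1 and 5 counts.

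Among single regions none stood apart from counting error. Of the 227 regions with a count, 0 passed the exact binomial test after adjustment, where 3 of 21323 (0.0141%) did in the whole table. At an unadjusted p under 0.05 there were 4 of 227 (1.76%), against 2.22% of all. These are the 2 high regions and 2 with 4 induced counts and none in the repressed library, R19007 (chr7:6334980-6335980) and R19099 (chr7:17641248-17642853), named after their values were seen. All 4 were higher in the induced library. At low counts this test favors that direction, because the induced share of all regions is the smaller one. In the exact binomial test 4 induced and 0 repressed counts gave p = 0.0316 (R19007), whereas 0 and 4 gave p = 0.144 (R18958).

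On the log2 scale of scaled counts with a pseudocount of 1, 43 of the 243 regions (17.7%) were higher by 2-fold or more and 43 (17.7%) lower, against 15.7% and 15.6% of all regions. The median log2 ratio was 0, as it was over all regions. The 43 higher ones had a median summed count of 2 and the 43 lower ones of 4, so that most rest on a few reads. The 2 directions do not need the same number of reads. A lone induced count gave 1.13 (R18933), which passes 2-fold, and a lone repressed count −0.90 (R18935), which does not. With a difference of any size counted, 109 (44.9%) were higher and 118 (48.6%) lower, against 43.3% and 45.7% of all regions. All of these shares lie near those of the whole table.

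Of the 31 regions with 10 or more counts, 16 were higher and 15 lower. The highest log2 ratio among them was 1.13, in R19049 (chr7:13863130-13864475) with 9 induced and 5 repressed counts, followed by 1.06 in R19004 (chr7:6282374-6284019) with 10 and 6. R19011, near Peg3, had 0.81. R18968 (chr7:4487371-4489629) with 10 and 7 counts and R19069 (chr7:16870995-16872063) with 6 and 4 complete the 5 highest, with 0.87 and 0.86 in that order. Every one of these has an interval of the ratio that includes 1, that of R19049 running from 0.743 to 9.38.

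The lowest log2 ratios were found in R18980 (chr7:4827801-4829420), with 2 induced and 9 repressed counts and −1.38, and in R18955 (chr7:3954965-3956509), with 2 and 8 counts and −1.23. R19034 (chr7:13487802-13489988) held 3 and 8 counts, R19122 (chr7:19840664-19844177) 5 and 12, and R19141 (chr7:20199620-20201010), of the block at 20 Mb, 5 and 11. The interval of the ratio was 0.0321 to 1.47 in R18980 and likewise included 1 in the other 4. R19060 (chr7:16589286-16591001), one of the 4 regions with 20 or more counts, held 9 and 16, a ratio of 0.772 (0.301 to 1.86).

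The first 25 Mb of the other 18 autosomes served as a comparison of like position. They held 3746 regions, with a ratio of 1.01 (0.979 to 1.04). Chromosome 7 had the second highest ratio of the 19, 1.09, behind chromosome 9 with 1.10 (0.966 to 1.25), and the lowest was 0.861 on chromosome 6. Without the regions that have no adjusted value, chromosome 7 ranked 11th with 1.00. Its median summed count of 4, shared with chromosome 8, was the highest of the 19 with and without those regions.

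**Figure D4:**
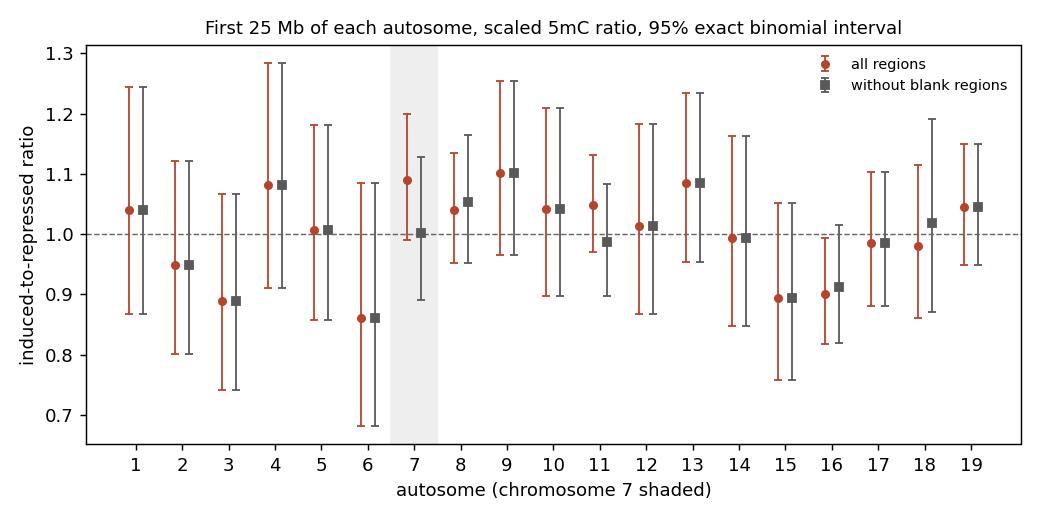
Scaled induced-to-repressed ratio over the first 25 Mb of each of the 19 autosomes, with 95% exact binomial intervals, for all regions (circles) and without the regions that have a blank adjusted value (squares). Chromosome 7, shaded, moves from 1.09 to 1.00 when its 2 blank regions are left out.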

How the data were processed

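The deposited table lists regions with a raw count and an adjusted value per library. Counts per region were deposited by the authors without normalization. The authors also deposited an adjusted signal, which equals the count times a factor of about 1.19 (induced) or 0.863 (repressed). It was used only to tell which regions are blank. The build is mm9, per the submitters' processing notes. DNA was sonicated to 300 to 1000 bp and read on a Genome Analyzer II instrument, per the labels' protocols. Not given in the sources used here were the aligner, the handling of duplicate and multiply placed reads and the choice of regions.

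Counts were scaled by library totals over all regions. A replicate-based test such as edgeR's was not possible, since 1 library per condition leaves no residual degrees of freedom. Regions and steps were compared by exact binomial tests with Benjamini-Hochberg adjustment over the whole table (threshold 0.05), and sums by Fisher's exact test with exact conditional intervals. Intervals of ratios are 95% Clopper-Pearson intervals. Reads amplified by PCR are not independent, so intervals may be too narrow.

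Named regions were those with a blank adjusted value or 20 or more counts, the 5 highest and 5 lowest log2 ratios at 10 or more counts, those of the Zscan4 interval with 5 or more counts, the 3 nearest Peg3 and those at the 25 Mb limit; all other named regions were chosen after their values were seen, among them those from 11 to 13 Mb, at 24 Mb and in the block at 20 Mb. The members and lists were chosen with earlier results of these data known. Starts are printed as listed and may count from 0. Software was Python 3.11.15 with scipy 1.17.1 and R 4.3.3 with edgeR 4.0.16 (TMM) and DESeq2 1.42.0 (median of ratios).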

Additional observations from a re-analysis of the deposited data

How the results depend on the processing

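The proximal stretch was 1.07 times the rest of chromosome 7. It was below 1 when the regions with a blank adjusted value were left out (0.985), and, with these left out and the limit set at 15 Mb, it was 0.923 (Fisher exact p = 0.405). The limit of 20 Mb gave 1.12 (1.00 to 1.26) with a Fisher exact p = 0.0466, which became 1.04 with p = 0.618 once the blank regions were left out. The alternatives that combine a limit with leaving out the blank regions were chosen after seeing the data. No other alternative for the 3 comparisons changed the direction or the side of 0.05. For the Zscan4 interval, leaving out its best covered region left no region, so that alternative gave no value. The number of 1 Mb steps past the adjusted threshold was 0 in every setting except without scaling, where it was 1, the step from 20 to 21 Mb with 72 and 125 counts (adjusted exact binomial p = 0.00831). In that setting 133 of the 1320 steps of the genome passed (10.1%), all of them lower in the induced library, whose total is the smaller one, so the call is not particular to this step. Single regions past the threshold numbered 0 in each of the 5 settings, with 0 to 4 at an unadjusted p under 0.05. Of the 2-fold counts, higher and lower, both were 0 with a pseudocount of 10, where 6 of all regions passed each way. Both were 2 with at least 10 counts per region (6.45%, against 8.43% higher and 9.30% lower of all such regions). The number lower was 79 without scaling (32.5%, against 31.5% of all regions), 72 with a pseudocount of 0.1 (29.6%, against 28.8%) and 79 at 1.5-fold (32.5%, against 31.4%). The number higher in these settings was 40 (16.5%, against 13.99%), 58 (23.9%, against 22.3%) and 64 (26.3%, against 24.9%). No paired analysis was possible because each group has 1 library. Depth limits single regions, of which the median held 1 induced and 2 repressed counts.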
